A study of Oryza sativa with 6 samples.

Results

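OPR1, OPR4 and OPR5 are rice genes of the 12-oxophytodienoate reductase family that lie close together on chromosome 6. They were chosen by a high signal with auxin on these arrays, so their values with auxin describe that choice and are given without a test. Every probe set that the platform annotation paired with 1 of the 3 genes was taken. This gave 4 probe sets, with 1 each for OPR1 and OPR4 and 2 for OPR5, of the 57194 target probe sets and 17905 named genes on the array. A probe set is a group of short probes read together as 1 value. All 4 passed the filter on dim signal that 34316 probe sets passed. The annotation held 9 gene records with an OPR number, and 4 other OPR genes had a probe set, which serve as background.

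The study asked which genes respond to 2 plant hormones, indole-3-acetic acid (IAA), the main natural auxin, and 6-benzylaminopurine (BAP), a synthetic cytokinin. Whole light-grown seedlings of the indica variety IR64, aged 7 days and grown at 28 °C under 14 h of light and 10 h of dark, gave total RNA for 6 Affymetrix arrays. Controls were mock-treated with 0.1% dimethyl sulfoxide, and the hormone groups stood in IAA or BAP at 50 µM, for which the labels give no solvent. In every group equal amounts of 1 h and 3 h material were pooled before extraction, so no time course can be read. Each group had 2 arrays, which the series design calls biological replicates, and how many seedlings each held is not given in the sources used here.

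OPR enzymes carry a flavin cofactor and belong to the old yellow enzyme family of reductases. In jasmonate synthesis, lipoxygenase, allene oxide synthase and allene oxide cyclase turn a chloroplast fatty acid into 12-oxophytodienoate. A peroxisomal OPR then reduces the ring of this compound, and beta-oxidation shortens the side chain to jasmonic acid, a hormone of wounding, defence and flower development. In rice that peroxisomal enzyme is known to be OPR7. The chromosome 6 genes belong to the other class of the family, whose enzymes lack the peroxisomal signal. Rice OPR1 is known to act mainly on the mirror-image form of the substrate, and roles for OPR4 and OPR5 in the plant are less well described.

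The hormones left their usual marks in these seedlings. With IAA, the Aux/IAA repressor genes IAA9 and IAA20 rose by 3.52 and 3.64 on the log2 scale (limma adjusted p = 2.40e-05 and 2.32e-05), and the auxin-conjugating enzyme gene GH3-2 rose by 2.60 (limma adjusted p = 0.000529). With BAP, the type-A response regulator genes RR6 and RR9 rose by 2.37 and 2.81 (limma adjusted p = 0.000207 and 0.000225). The cytokinin oxidase gene CKX5 rose by 1.94 (limma adjusted p = 0.0102), a call lost without any control or BAP array (limma adjusted p from 0.0657 to 0.0983). With IAA, RR9 differed by -1.03 (limma adjusted p = 0.0159) and RR6 by -0.28 (limma adjusted p = 0.423). The call of RR9 with IAA was lost in several alternatives of the processing, over which its difference ran from -1.21 to -0.83. Markers of green shoot were high on every array, with a summed normalized level of 29519 to 30393 over 6 genes. RBCS1, one of these 6, did not pass the filter. The 4 root transport and barrier genes summed to 4600 to 5203 on control arrays, 3289 to 3649 with IAA and 2400 to 2446 with BAP. Of these, Nrat1, an aluminium transporter gene, fell with IAA, and NIP2-1, Lsi2 and Nrat1 fell with BAP. The remaining gene, CASP1, differed by -0.10 with IAA (limma adjusted p = 0.891) and by 0.01 with BAP (limma adjusted p = 0.996). Without any control or IAA array the call of Nrat1 with IAA was lost (limma adjusted p from 0.0952 to 0.287). With BAP at least 1 array decided each of the 3 calls, as limma adjusted p rose to between 0.0583 and 0.124 without a control array or BAP array 2, and for NIP2-1 also without BAP array 1. The 8 flower and seed genes summed to 229 to 354 on any array, with 4 of them too dim to test. None of 4 low-oxygen genes, ADH2, PDC1, PDC2 and SUS1, passed the threshold with either hormone, and their sum lay between 11170 and 12610. Among them PDC1 differed by -1.09 with IAA (SE 0.50, limma adjusted p = 0.484). The deposited intensity of PDC1 was 1127.6 and 286.8 on the BAP arrays. The part of the root markers in the OPR values was not tested, and in whole seedlings fewer cells of a type and less RNA per cell cannot be told apart. Control arrays ran on fluidics modules 1 and 2 and IAA arrays on modules 3 and 4 of run day 1. The BAP arrays ran on modules 3 and 4 of run day 2. Against control, module and IAA cannot be told apart, nor can module, run day and BAP. Between the hormones, run day and hormone cannot be told apart.

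OPR1 (LOC4340490) was read by 1 probe set. Its deposited intensity was 940.6 and 1122.2 on the control arrays, 2869.4 and 4114.5 with IAA, and 787.7 and 883.8 with BAP. Both IAA arrays lay far above the other 4, and both BAP arrays lay just below both controls. After quantile normalization, which gives every array the same distribution of values, OPR1 averaged 1031 ± 224 in controls, 3537 ± 396 with IAA and 825 ± 32.9 with BAP (SD, n = 2 arrays each, as for all such values here). The order of the levels was therefore IAA, control, BAP, and the last 2 differed by less than the SD of the controls.

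OPR4 (LOC4340486) was also read by 1 probe set. Its deposited intensity was 662.1 and 618.3 in controls, 2200.8 and 3016.2 with IAA, and 881 and 1153.8 with BAP. The 3 groups did not overlap, with BAP between control and IAA. The normalized means were 631 ± 27.1 in controls, 2669 ± 233 with IAA and 1001 ± 144 with BAP, so OPR4 had the tightest control pair of the 3 genes.

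OPR5 (LOC4340485) was read by a bright and a dim probe set. The bright probe set gave a deposited intensity of 805.4 and 950.2 in controls, 2713.5 and 3979.4 with IAA, and 1046.2 and 1131.4 with BAP. The dim probe set gave 22.7 and 33.9 in controls, 67.9 and 79.4 with IAA, and 36.7 and 40.6 with BAP. Both placed the groups in the order IAA, BAP, control, without overlap. The normalized means of the bright probe set were 876 ± 182, 3365 ± 416 and 1074 ± 15.8 for control, IAA and BAP. The difference between BAP and control was close to the SD of the control pair. For the dim probe set they were 28.1 ± 10.9, 78.9 ± 3.49 and 36.9 ± 0.950.

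**Figure D1:**
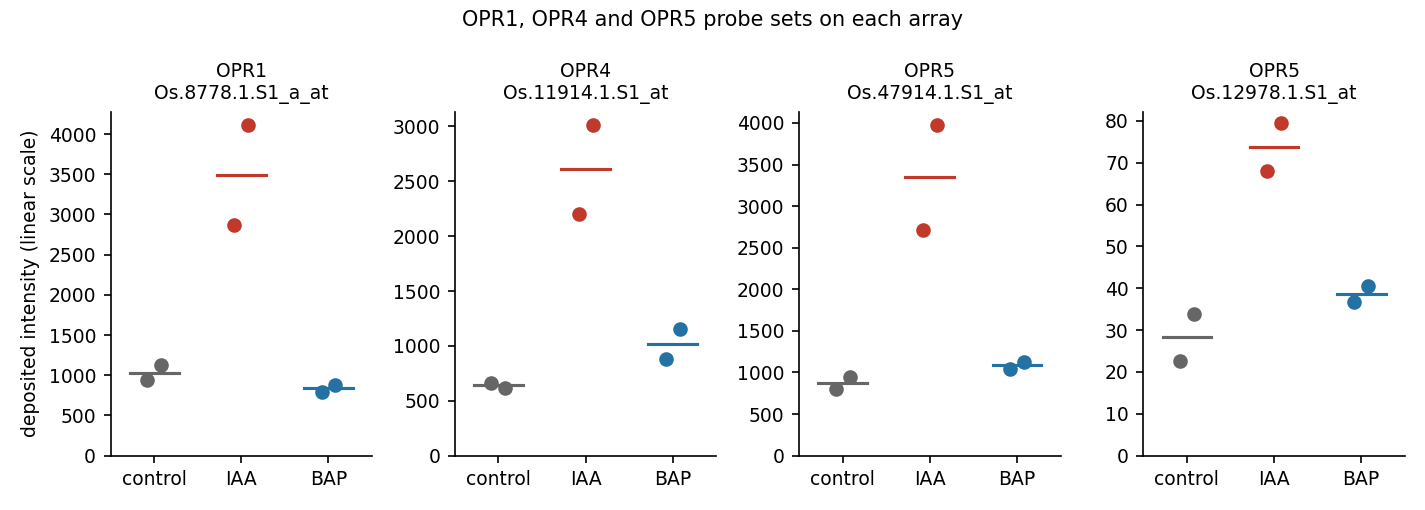
Deposited intensity on a linear scale (vertical axis) of the 4 probe sets of OPR1, OPR4 and OPR5 in control, IAA and BAP seedlings. Each point is 1 array and each bar the mean of 2; the IAA arrays lie above all others in every panel, and only for OPR1 do the BAP arrays lie below the controls.

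With IAA, the 3 genes stood between 3.42 and 4.15 times their control level. All differences are on the log2(intensity + 16) scale, which understates change in dim probe sets. OPR4 differed by 2.05 (SE 0.13), or 4.15-fold, and ranked 40 from the highest of the 34316 probe sets. The bright probe set of OPR5 differed by 1.93 (SE 0.15), or 3.81-fold, and ranked 49. OPR1 differed by 1.78 (SE 0.15), or 3.42-fold, and ranked 62. The dim probe set of OPR5 differed by 1.13 (SE 0.22), or 2.19-fold, and ranked 184. Against the control mean, the IAA arrays read 1.66 and 1.89 for OPR1, 1.96 and 2.14 for OPR4, and 1.81 and 2.06 for the bright probe set of OPR5. The bright probe sets thus stood higher on IAA array 2 than on IAA array 1, whereas the dim probe set of OPR5 read 1.17 and 1.09.

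In the fit over the whole table, 3 of the 4 probe sets were past the adjusted p of 0.05 as higher with IAA, where 0.632% of all tested probe sets were. The dim probe set of OPR5 was not. None was past it as lower, where 0.219% were. Both IAA arrays lay above both controls for all 4, as they did for 21.1% of all tested probe sets. The choice of genes used this contrast, so nothing is read from these counts. The median of the 4 differences was 1.85, and over all tested probe sets it was -0.01.

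The comparison of BAP with control did not enter the choice of the genes. It shares the control arrays with the comparison above. No OPR probe set of the 4 passed the threshold in either direction with BAP, where 0.21% of all tested probe sets passed as higher and 0.0641% as lower. OPR4 had the largest difference, 0.65 (SE 0.13, 95% interval 0.36 to 0.93, limma adjusted p = 0.113), or 1.57-fold, and ranked 629 from the highest. OPR5 differed by 0.30 on its bright probe set (SE 0.15, interval -0.03 to 0.64, limma adjusted p = 0.724). Its dim probe set differed by 0.29 (SE 0.22, interval -0.21 to 0.78, limma adjusted p = 0.892). OPR1 differed by -0.30 (SE 0.15, interval -0.64 to 0.04, limma adjusted p = 0.738). The interval of OPR4, which is not adjusted for the number of probe sets, lay above 0, and those of OPR1 and OPR5 held 0.

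The groups of 2 BAP and 2 control arrays did not overlap for any of the 4 probe sets. Both BAP arrays lay above both controls for OPR4 and both OPR5 probe sets, as for 17.8% of all tested probe sets, and below them for OPR1, as for 19.9%. The median of the 4 differences was 0.29, against -0.01 over all tested probe sets. The values of OPR1 and OPR5 rested on which control array was used. Without control array 1 OPR1 read -0.52 and without control array 2 it read -0.08, and the bright probe set of OPR5 read 0.10 and 0.51. The dim probe set of OPR5 read 0.03 and 0.54. OPR4 read 0.50 without BAP array 2 and 0.79 without BAP array 1, with a limma adjusted p of 0.0802 to 0.554 over all alternatives.

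The 3 genes were next set against each other in their change with BAP. The change with BAP was 0.95 larger on the log2 scale for OPR4 than for OPR1, 0.60 larger for the bright probe set of OPR5 than for OPR1, and 0.34 larger for OPR4 than for that probe set. In each of these pairs the within-array difference was higher on both BAP arrays than on both control arrays. Among single tested probe sets 17.8% lay that way, and the share for pairs was not computed. The pairs reuse the same probe sets, so they are not independent. For OPR4 minus OPR5 the gap was narrow, with -0.238 on BAP array 1 and -0.283 on control array 1. An exact permutation test of 2 against 2 arrays cannot decide these differences between the genes, since the smallest two-sided p it allows is 0.333. No other test of them was run.

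Set directly against IAA, which uses the IAA arrays that chose the genes, the BAP arrays read lower for all 4 probe sets. OPR1 differed by -2.07 (SE 0.15), the bright probe set of OPR5 by -1.63 (SE 0.15), OPR4 by -1.41 (SE 0.13) and the dim probe set of OPR5 by -0.84 (SE 0.22). Of the 4, 3 were past the threshold as lower, where 1.13% of all tested probe sets were, and both BAP arrays lay below both IAA arrays for all 4, as for 19.5%. Nothing is read from these counts either. OPR1, lowest with BAP against control, had the widest gap between the hormones.

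**Figure D2:**
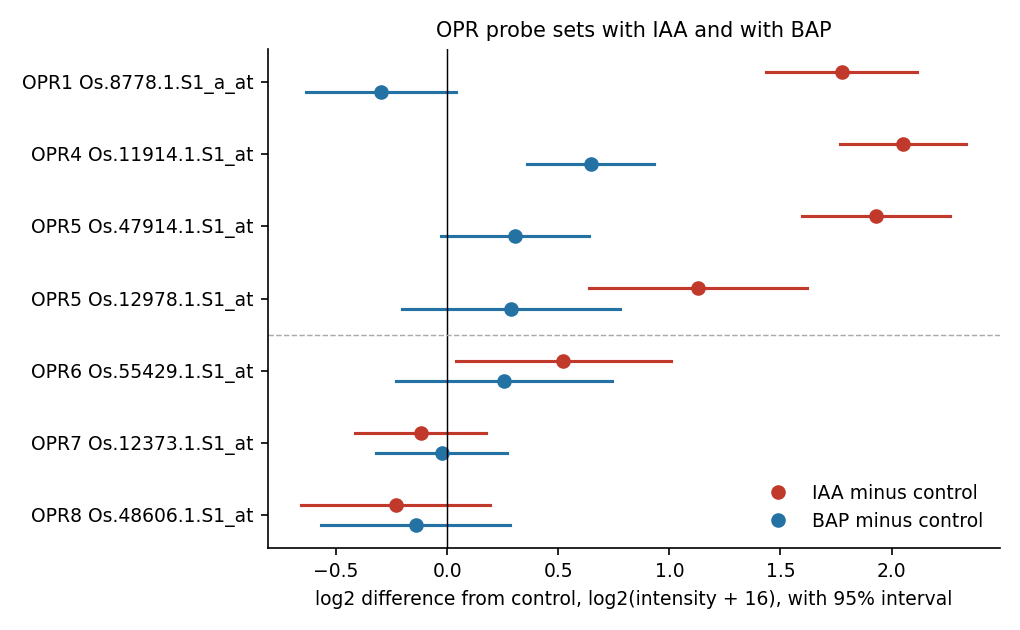
Difference from control on the log2(intensity + 16) scale (horizontal axis) for each tested OPR probe set, with IAA in red and BAP in blue; points are limma estimates and lines 95% intervals from 2 arrays a group. Above the dashed line the 4 probe sets of OPR1, OPR4 and OPR5 lie between 1.13 and 2.05 with IAA, which chose them, and below it OPR6, OPR7 and OPR8 lie between -0.23 and 0.52.

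Among themselves, the 4 probe sets followed each other closely over the 6 arrays. Pearson's r of the log2 values was 0.976 between OPR4 and the bright probe set of OPR5, 0.962 between OPR1 and that probe set, and 0.895 between OPR1 and OPR4. The 2 probe sets of OPR5 correlated at 0.975. These coefficients describe 6 arrays in 3 groups, and all 4 probe sets stand high with IAA, which chose the genes. Copies of a tandem family can be similar enough for their transcripts to bind each other's probes, and the sequences of these genes were not used here, so how far each value belongs to 1 gene was not tested.

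The other OPR genes gave a background for the family. OPR6 lies beside OPR5 on chromosome 6 and was dim. Its deposited intensity was 25.8 and 15.8 in controls, 28.6 and 37.3 with IAA, and 28.8 and 28.1 with BAP. Both IAA arrays lay above both controls, by 0.52 (SE 0.21, limma adjusted p = 0.416), and BAP differed by 0.26 (SE 0.21, limma adjusted p = 0.903). Its intervals were 0.04 to 1.01 with IAA and -0.23 to 0.74 with BAP, so the sign of its difference with BAP was not settled at this signal.

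OPR7, the jasmonate-forming reductase on chromosome 8, was bright on every array. Its deposited intensity was 1879.4 and 1760.1 in controls, 1584.4 and 1672.4 with IAA, and 1973.4 and 1657.1 with BAP. It differed by -0.12 with IAA (SE 0.13, interval -0.41 to 0.17, limma adjusted p = 0.814) and by -0.03 with BAP (SE 0.13, interval -0.32 to 0.27, limma adjusted p = 0.988).

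OPR8, on chromosome 2, differed by -0.23 with IAA (limma adjusted p = 0.737) and by -0.14 with BAP (limma adjusted p = 0.944). Its deposited intensity ranged from 50.3 to 91 over the 6 arrays. OPR12, on chromosome 4, read between 1.1 and 8.2 and was left out as too dim. The OPR3 record and a second OPR1 record on chromosome 6 had no listed probe set.

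In the RefSeq gene order of a japonica assembly, used here for order only, the chromosome 6 genes form a run of 8 records, of which 6 are OPR. The order is OPR6, OPR5, a long non-coding RNA, OPR4, OPR3, a pseudogene, OPR1 and the second OPR1 record. Probe sets were listed for 4 of the 6 OPR records, so the array reads this run in part. Names in this family vary between sources. The OPR1 record also carries the name OPR2, and the OPR5 record the names OPR6 and OPR-1. The name OPR4 is also listed for the OPR6 record, and OPR5 for the OPR12 record. Here each record keeps the name under which it is numbered in rice.

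The genes beside the run were then read as a local background. Of the 20 flanking records, 10 on each side, 14 had a tested probe set, 15 probe sets in all. None of the 15 passed the threshold with IAA, and the differences of the brightest probe set of each gene ran from -0.47 to 0.22 with a median of -0.04. None passed with BAP, where they ran from -0.22 to 0.30 with a median of 0.08. Between the hormones 1 of the 15 passed, LOC4340477, which was higher with BAP by 0.68 (limma adjusted p = 0.0476), beside 1.11% of all tested probe sets. That call was lost in 11 of 14 alternatives, among them the loss of any array but IAA array 1 (limma adjusted p from 0.0960 to 0.173).

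**Figure D3:**
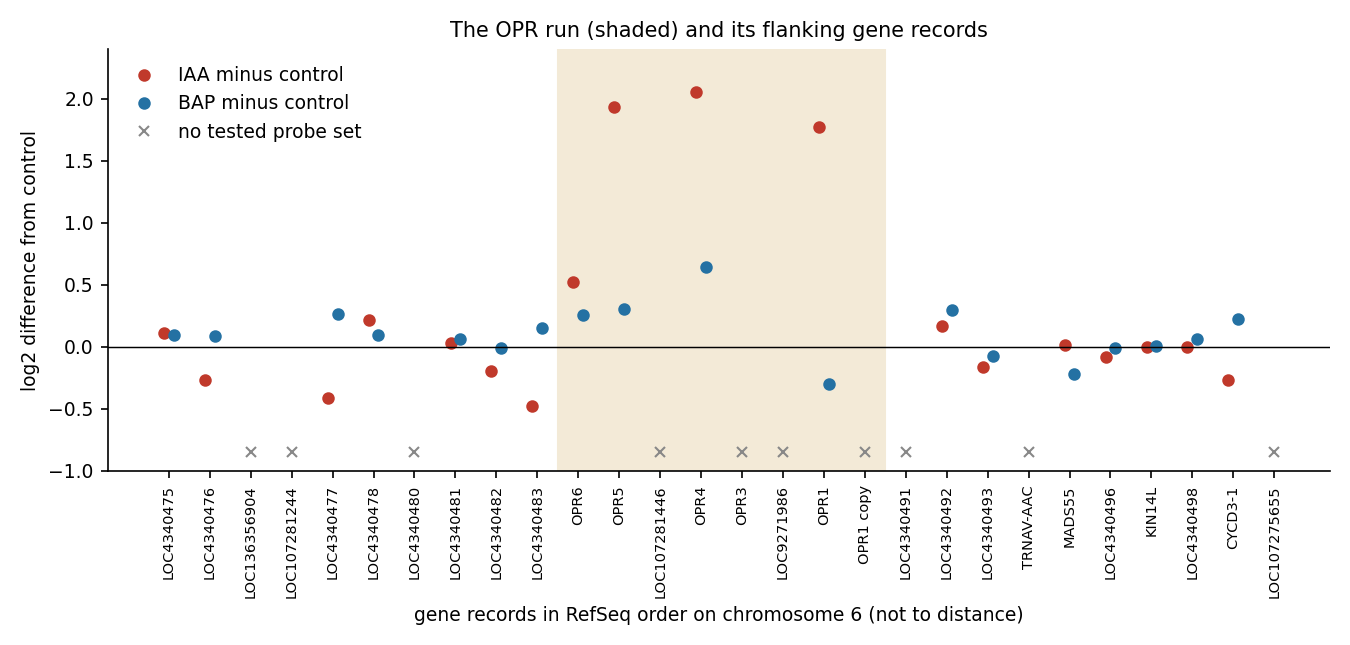
Difference from control on the log2 scale (vertical axis) for the OPR run on chromosome 6 (shaded) and 10 gene records on each side, in gene order and not to distance; red points are IAA, blue points BAP, crosses records without a tested probe set. Where a gene has several probe sets the brightest is drawn; the flanking genes lie between -0.47 and 0.30, while OPR5, OPR4 and OPR1 lie between 1.78 and 2.05 with IAA.

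For each gene the 5 named genes with the most similar pattern were found among 322 candidates that varied by at least 1 log2 unit, by Pearson's r over the 6 arrays. For OPR1 they were SAT1 (r = 0.995), CYP87A3, a cytochrome P450 gene (0.986), ARF10, of the auxin response factor family (0.985), IAA1, an Aux/IAA gene (0.985), and SAP5, of the stress-associated zinc finger proteins (0.984). The probe sets of SAT1 and SAP5, like that of GSTU1 named for OPR5, are of a kind that can bind several transcripts. SAT1, CYP87A3, ARF10 and SAP5 resembled OPR1 in reading slightly below control with BAP, by 0.10 to 0.30 on the log2 scale, and IAA1 read 0.05 above it.

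For OPR4 they were IAA12 (0.993), the auxin-conjugating enzyme gene GH3-8 (0.987), NAC3, a NAC transcription factor gene (0.987), IAA10 (0.982) and OPR5 itself (0.976). GH3-8 read 2.06 with IAA and 0.62 with BAP relative to control, close to the 2.05 and 0.65 of OPR4. For OPR5 they were the glutathione S-transferase gene GSTU1 (0.997), NAC3 (0.990), IAA1 (0.989), IAA10 (0.987) and IAA26 (0.977). GSTU1 read 2.22 with IAA and 0.25 with BAP, beside 1.93 and 0.30 for OPR5. NAC3, IAA1 and IAA10 each stood near more than 1 OPR gene. As all candidates were read on the same 6 arrays in 3 groups, a high r is common among genes that stand high with IAA.

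The rest of the jasmonate route was then described from lists of named genes. Genes were listed by name alone, and whether each LOX or AOS enzyme serves jasmonate synthesis was not examined. None of the 13 tested genes of jasmonate synthesis, OPR7 among them, passed the limma threshold with IAA, where 0.632% of all tested probe sets passed as higher and 0.219% as lower. An unadjusted p under 0.05 was found for 4 of the 13, beside 10.8% of all tested probe sets. These were CM-LOX2, LOX3, AOS4 (-0.42, limma adjusted p = 0.389) and CM-LOX1 (-0.45, limma adjusted p = 0.418), all lower with IAA. Of the 13 genes, 9 read below 0. The differences of the 13 ran from -0.65 for the lipoxygenase gene CM-LOX2 (SE 0.23, limma adjusted p = 0.312) to 0.22 for the allene oxide synthase gene AOS2, with a median of -0.12. LOX3 read -0.62 (SE 0.24, limma adjusted p = 0.379). The only listed allene oxide cyclase gene, AOC, was bright on every array, at 3009.9 and 2857.3 in controls and 2673.5 and 2761.4 with IAA, a difference of -0.08 (SE 0.10, limma adjusted p = 0.846). None passed with BAP, and none had an unadjusted p under 0.05, beside 7.57% of all tested probe sets. There the median was -0.12 and the range -0.55 for AOS3 to 0.11 for AOC. Between the hormones none passed either, with 3 at an unadjusted p under 0.05, beside 12.7% of all tested probe sets.

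JAR1, which joins jasmonate to isoleucine to make the active hormone, differed by 0.32 with IAA (SE 0.14, limma adjusted p = 0.452) and by -0.02 with BAP (limma adjusted p = 0.989). Of 21 listed genes of jasmonate perception and response, 19 were tested and TIFY5 and TIFY8 were too dim. Some of the TIFY genes, such as TIFY1A, TIFY2A and TIFY2B, also carry names of the GATA family and are not JAZ repressors. With IAA 1 of the 19 passed the limma threshold as higher and none as lower, beside 0.632% and 0.219% of all tested probe sets. It was TIFY11B, of the JAZ repressors that hold the pathway off, at 0.88 (SE 0.14, limma adjusted p = 0.0254), and its call was lost without any control or IAA array (limma adjusted p from 0.0938 to 0.202). It was read by a probe set of a kind that can bind several transcripts, and a second probe set of the gene read 0.80 (SE 0.17, limma adjusted p = 0.0845). At an unadjusted p under 0.05 there were 5 of the 19, beside 10.8% of all tested probe sets, and all read higher with IAA. Besides TIFY11B they were TIFY3 (0.39, limma adjusted p = 0.167) and TIFY11C (0.59, limma adjusted p = 0.202). The others were TIFY10A (0.44, limma adjusted p = 0.206) and TIFY10B (0.24, limma adjusted p = 0.319). The list's median was 0.10, against -0.01 over all tested probe sets.

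The receptor subunit genes COI1A and COI1B differed by 0.01 and 0.07 with IAA. With BAP none of the 19 passed the limma threshold, beside 0.21% of all tested probe sets as higher and 0.0641% as lower, and the median was 0.03. An unadjusted p under 0.05 was found for 4 of the 19, beside 7.57% of all tested probe sets. TIFY11D read 0.86 (limma adjusted p = 0.14), TIFY11E 0.83 (limma adjusted p = 0.142) and TIFY9 0.77 (limma adjusted p = 0.339). The remaining gene was TIFY11B, at 0.57 (limma adjusted p = 0.224), and its second probe set read 0.53 (limma adjusted p = 0.433). TIFY11B thus read above control with both hormones, and with BAP against IAA it differed by -0.32 (SE 0.14), which did not pass the threshold. Between the hormones 6 of the 19 had an unadjusted p under 0.05, beside 12.7% of all tested probe sets. Of these, TIFY9, TIFY11D and TIFY11E read higher with BAP, and TIFY3, TIFY10A and TIFY11C lower. Past the limma threshold 1 of the 19 was higher with BAP, beside 1.11% of all tested probe sets, and none was lower, beside 1.13%. It was TIFY11E, at 1.00 (limma adjusted p = 0.0235), a call lost without any IAA or BAP array (limma adjusted p from 0.0654 to 0.122).

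Glutathione S-transferases, which attach glutathione to reactive compounds, are, like OPR genes, known for responding to reactive chemicals. Of the 6 tested genes, 3 rose with IAA and none fell, beside 0.632% and 0.219% of all tested probe sets. GSTU1 rose by 2.22 (SE 0.19, limma adjusted p = 0.00121) and GSTU6 by 1.68 (SE 0.15, limma adjusted p = 0.00153), close in size to the OPR genes. GSTZ5 rose by 0.79 (SE 0.14, limma adjusted p = 0.035), a call lost when any of the 6 arrays was left out (limma adjusted p from 0.0585 to 0.268). The other 3, GSTF1, GSTF2 and GSTZ3, read -0.04, 0.07 and 0.21, and a second probe set of GSTZ3 read -0.22. With BAP none of the 6 passed the limma threshold or had an unadjusted p under 0.05, and the median was 0.03. Between the hormones GSTU1, GSTU6 and GSTZ5 were lower with BAP than with IAA, beside 1.13% of all tested probe sets, and GSTZ5 lost that call without IAA array 2 or either BAP array (limma adjusted p from 0.0653 to 0.0791). The list holds genes that an earlier look at these arrays had shown to be high with IAA, so its counts are a description.

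**Figure D4:**
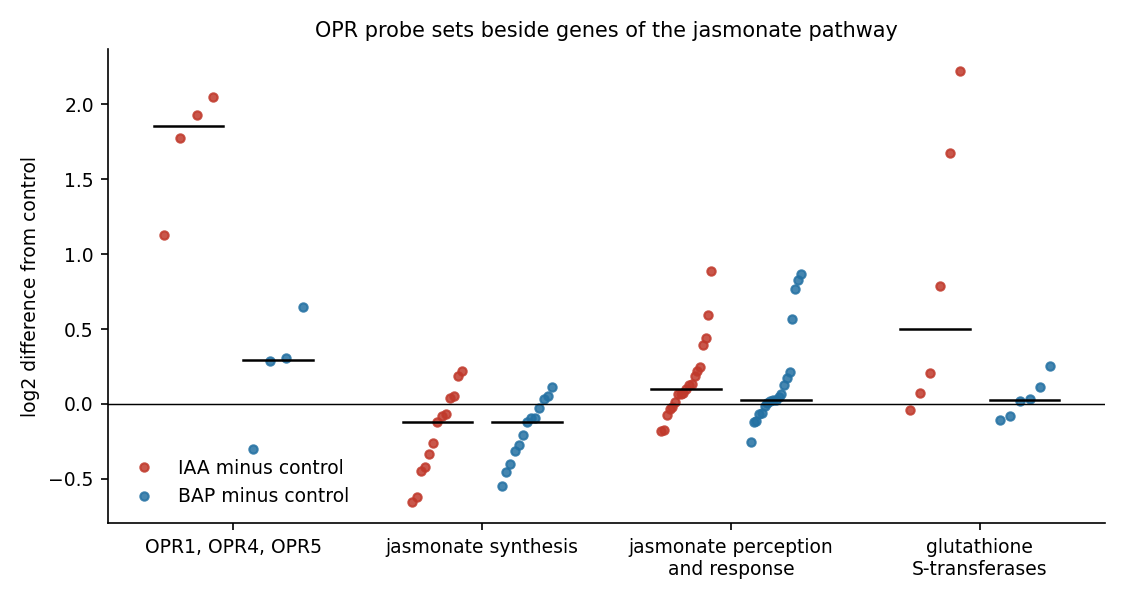
Difference from control on the log2 scale (vertical axis) for the 4 probe sets of OPR1, OPR4 and OPR5, 13 genes of jasmonate synthesis, 19 of perception and response and 6 glutathione S-transferases, sorted within each column; red is IAA, blue is BAP, 1 point per probe set or gene, black bars are medians. With IAA the OPR median is 1.85, that of jasmonate synthesis -0.12 and that of perception and response 0.10.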

How the data were processed

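The authors deposited linear intensities, 1 for each probe set on each array. Background correction and summary method are not given in the sources used here. Run day and module came from the experiment files, per the file headers.

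Of 57381 probe sets, 187 array controls were left out. Array medians of log2(intensity + 16) differed by up to 0.262, above a limit of 0.1, so arrays were quantile normalized. The 22878 probe sets with a mean log2 value under the 40th percentile (4.70, an intensity near 9.94) were left out. Group means were fitted over all 6 arrays with limma 3.58.1 in R 4.3.3, with a spread that followed intensity, 3 residual degrees of freedom and a median of 6.07 prior ones, and Benjamini-Hochberg adjustment over 34316 probe sets at 0.05. P-values are two-sided. Printed normalized levels have the 16 subtracted again. Median deposited intensity per array was 16.6 to 23.1, and the number of arrays limits precision. Tables and plots used Python 3.11.15, pandas 2.3.3 and matplotlib 3.10.9.

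Genes came from the platform annotation (22436 probe sets with 1 gene, 95 with several and not named, 34663 unlisted), with names and order from RefSeq. For a gene with several probe sets the brightest was used. Genes named were all OPR genes, the 5 nearest patterns for each member, called neighbours, and from each list genes with the smallest p plus a few chosen after their values were seen (AOC, AOS2, AOS3, COI1A, COI1B, GSTF1, GSTF2 and GSTZ3). Members and lists were chosen with earlier results of these data known. On data simulated for IAA against control, 67 of 68 probe sets changed by 2 log2 units were called, 41 of 72 changed by 1, 10 of 60 changed by 0.5 and 7 of 34116 unchanged. The simulated noise was independent between arrays, with the spread that limma had estimated and no effect of module or run day. The simulated counts therefore do not cover such effects. Each comparison was repeated under 14 alternatives of scaling, pseudocount, filter, spread model, groups fitted, replicate block and arrays left out. Protein and promoter sequences were not used here.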

Additional observations from a re-analysis of the deposited data

How the results depend on the processing

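Of the 4 probe sets of OPR1, OPR4 and OPR5, none was past the threshold with BAP and 3 were between the hormones under all 14 alternatives. With IAA 3 were, and 4 without scaling and with a pseudocount of 64. The IAA arrays chose the genes, so nothing is read from the counts with IAA or between the hormones. In the main fit 0.632% of all tested probe sets were past the threshold as higher with IAA. With BAP 0.21% were past it as higher and 0.0641% as lower, and 1.13% were lower with BAP than with IAA. The single differences kept their sign. The dim probe set of OPR5 moved most, from 0.64 with a pseudocount of 64 to 1.51 with a pseudocount of 1 with IAA, and made up the fourth in those 2 alternatives. Probe sets called over the whole table numbered 292 with IAA, 94 with BAP and 769 between the hormones (unadjusted p under 0.05: 3723, 2599 and 4356). Without scaling, the first 2 counts were 502 and 210, and with arrays centred on their medians the BAP count was 60. Without the filter the 3 counts were 68, 14 and 234, and with a spread that does not follow intensity 92, 13 and 223. Leaving out 1 array gave 85 to 287, 13 to 92 and 310 to 591. Without a control array the IAA count was 85 or 149 and the BAP count 15 or 18. Without an IAA array the counts were 103 or 178 with IAA and 310 or 430 between the hormones. Without a BAP array they were 32 or 13 with BAP and 322 or 348 between the hormones. The lone array left is assumed to vary like the other groups, and the cause of these shifts was not tested beyond the fewer arrays. With a replicate block the 3 counts were 320, 95 and 756, and those of the OPR probe sets 3, 0 and 3. Replicate differences correlated between groups at -0.06 to 0.03, so the numbers do not pair the arrays. The median of all IAA differences was -0.08 without scaling.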
